A study of Mus musculus with 121 samples.

Results

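The microglia genes are 31 genes used as markers of microglia, the resident macrophages of the brain. They were listed by name, and each was matched by gene symbol to the table of raw read counts, where they are 31 of 24412 genes. In every group of libraries 30 of the 31 passed the expression filter and were tested. Cst7, a cystatin raised in activated microglia, had 0 to 22 reads per library (median 1) and was not tested.

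Microglia arise from yolk sac precursors, enter the brain early in development and maintain themselves there under signals through the receptor Csf1r. The transcription factors Spi1 (PU.1), Irf8 and Sall1 set their identity. Cx3cr1 and the purinergic receptors P2ry12 and P2ry13 let them sense neurons, while Trem2 and Tyrobp signal during phagocytosis. In activated microglia the transcripts of homeostatic receptors often fall while those of lysosomal and lipid-handling genes rise.

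The libraries come from male mice of a mixed 129Ola, ICR and C57bl6 background that carry a conditional hypermorph allele of Gdnf, in which Cre turns a polyadenylation cassette behind the stop codon and shortens the 3' end of the transcript. In the Nestin-Cre model 21 mice were killed at 2 months by their labels (2 to 3 months by the text of the study for STR and SN) with no treatment, and Cre acts in neural progenitors from before birth. In the AAV-Cre model 22 mice received AAV-Cre into the striatum on both sides at 3 to 5 months and were killed at 5 to 7 months. Prefrontal cortex (PFC), striatum (STR) and substantia nigra (SN) were cut from 2-mm slices and sequenced as stranded poly(A) libraries.

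Genotypes are wt/wt (WT), wt/cKU (HET) and cKU/cKU (HOM). In WT, HET and HOM order the Nestin-Cre libraries number 8, 6 and 4 in PFC, then 6, 7 and 6 in both STR and SN. AAV-Cre libraries number 7, 7 and 8 in PFC and SN, and 7, 7 and 7 in STR. WT mice of the AAV-Cre model were injected too, so a HET or HOM difference there is counted against injected controls. Between the models injection, age, Cre source and mouse cohort differ together, and the share of each cannot be told apart. In bulk tissue fewer microglia and less RNA per microglial cell cannot be told apart either. Library depth ran from 9869584 to 26750905 assigned reads (median 17885830), and levels below are counts scaled to 1000000 of these reads (cpm), as medians with the lowest and highest library.

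Gdnf serves as a label check, a partial one because the allele alters the end of the transcript and reads over all exons were summed. In Nestin-Cre PFC it had 0.393 cpm (0.198 to 0.884) in WT, 0.355 (0.126 to 0.899) in HET and, in the 4 HOM libraries, 0.0893, 0.126, 0.139 and 0.626. In Nestin-Cre STR the WT, HET and HOM values were 5.98 (3.88 to 7.21), 5.67 (4.04 to 9.05) and 6.65 (5.79 to 9.59). Nestin-Cre SN gave 0.452 (0.287 to 0.521), 0.526 (0.299 to 1.67) and 0.705 (0.379 to 0.936). Among AAV-Cre libraries PFC held 1.02 (0.294 to 1.15), 1.19 (0.299 to 1.61) and 0.710 (0.352 to 1.54), and SN 0.232 (0.101 to 1.08), 0.404 (0.249 to 0.899) and 0.473 (0.178 to 0.889). AAV-Cre STR had 6.74 (5.45 to 7.45) in WT, 7.37 (6.46 to 9.43) in HET and 8.67 (7.71 to 9.98) in HOM, and there each HOM library lay above each WT library. In the other 5 model and region pairs the genotypes overlapped. In Nestin-Cre PFC, WT and HOM overlapped only through the HOM library at 0.626 cpm, and the other HOM libraries lay below each WT library. By qPCR the study reports raised striatal Gdnf mRNA in mutants of both models.

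Region labels match the markers of each region. The summed level of 8 striatal neuron genes had WT medians of 9562 cpm in Nestin-Cre STR and 7159 cpm in AAV-Cre STR, against 537 and 747 cpm in PFC. Nigral neuron genes reached 2728 and 2879 cpm in SN and stayed at or under 50.0 cpm elsewhere in WT. The labels N_PFC_WT_4575, N_STR_HOM_4575 and N_SN_HOM_4575 give a single mouse number 2 genotypes, and these libraries stayed in the groups that their labels name.

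Some libraries stand apart. The Nestin-Cre SN libraries N_SN_WT_4529 and N_SN_WT_4545 had summed member levels of 1178 and 1181 cpm, where the other 4 of WT ran from 825 to 973 cpm, so the members called in comparisons with this group were also counted without these 2 mice. The same libraries held 33850 and 32160 cpm of 10 oligodendrocyte genes. Striatal neuron genes reached 1487 cpm in N_SN_HET_4566 and 833 cpm in A_SN_WT_3587, where the other libraries of their groups lay at or under 338 and 364 cpm, and leaving these 2 out was not tried. Choroid plexus genes, a sign of ventricle lining in the slice, reached 21260 cpm in A_SN_HET_3676, 19010 cpm in N_STR_HET_4566 and 8284 cpm in STR of an AAV-Cre WT mouse. Whether choroid tissue alters member levels was not tested.

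Per kilobase of exon, averaged over the 6 WT groups, Ctss stood highest at 77.0 cpm per kb, ranked first in each of the 6. This lysosomal cysteine protease was followed by Csf1r (35.0), the signalling adaptor Tyrobp (31.2), P2ry12 (21.4), the lysosomal membrane protein gene Laptm5 (18.4) and Cx3cr1 (17.9). Selplg, Fcer1g, Olfml3, Tmem119, Ly86, Cd83, Lyz2 and Trem2 lay between 11.0 and 14.5 cpm per kb. Fcgr3, an activating receptor for IgG, Aif1, Cd68, Fcrls, Gpr34, Sall1, P2ry13, the sialic acid lectin gene Siglech and Itgam lay between 5.53 and 9.67 cpm per kb. The average hides differences between groups: Fcrls had 12.5 cpm per kb and rank 7 in Nestin-Cre PFC, but 2.90 and 2.13 and rank 27 in AAV-Cre STR and SN. Inpp5d, Cd53, Spi1, Apbb1ip, Cd14 and Irf8 lay between 1.98 and 3.84 cpm per kb. The transcription factors were uneven on this scale, with Sall1 at 7.73, Spi1 at 2.32 and Irf8 at 1.98 cpm per kb. The leukocyte phosphatase Ptprc was ranked 30 and Cst7 31 in each group. By share of the summed level Csf1r gave 17.0%, Ctss 13% and Cx3cr1 8.35%. Reads of Lyz2 may be shared with its near-identical neighbour Lyz1, so its level is uncertain.

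Summed over the 31 genes, WT levels in Nestin-Cre mice were 620.0 cpm (565 to 688) in PFC, 756 (674 to 890.2) in STR and 925 (825 to 1181) in SN. AAV-Cre WT mice had 809.5 cpm (683 to 951) in PFC, 872 (749 to 938) in STR and 757 (663 to 995) in SN. Regional order therefore differs between the models, with SN highest by median in the Nestin-Cre mice and lowest in the AAV-Cre mice.

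**Figure D1:**
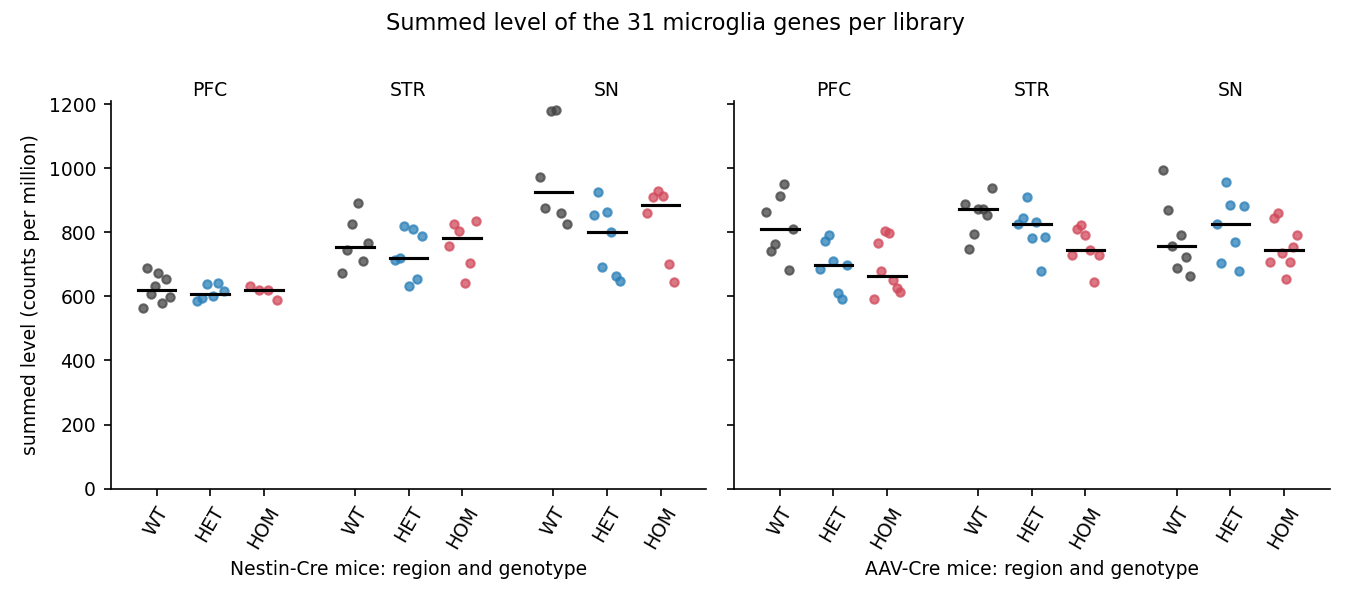
Summed level of the 31 microglia genes in cpm (vertical) by region and genotype (horizontal), Nestin-Cre left and AAV-Cre right. Each point is a library and each bar a group median, from 608 cpm (Nestin-Cre PFC HET) to 925 cpm (Nestin-Cre SN WT).

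Between regions of WT mice, edgeR quasi-likelihood tests with Benjamini-Hochberg adjustment called a gene at an adjusted p under 0.1. In Nestin-Cre mice 20 members were higher and 2 lower in STR than in PFC (all genes, 34.2% higher and 34% lower). Against PFC, SN had 20 higher and 3 lower (37.6% and 41.2% of all genes), and against STR 10 higher and 6 lower (37.8% and 38.3%). Member medians of the log2 difference were 0.45, 0.50 and 0.10, beside 0.00, -0.03 and 0.01 over all genes. With mouse number as a block the members lower in STR than in PFC went from 2 to 4 (67.6% of all genes in either direction). Without the 2 mice, SN had 16 higher and 2 lower against PFC (median 0.37), and 7 higher and 5 lower against STR, where 72.9% and 68.1% of all genes were called in either direction.

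In AAV-Cre WT mice the split was different. STR had 7 members higher and 2 lower than PFC (33.8% and 31.8% of all genes), with a member median of 0.07 beside 0.02 over all genes. SN had 3 higher and 17 lower than PFC (37.7% and 36.4%; medians -0.32 and 0.02). Against STR, SN had 2 higher and 17 lower (39.7% and 35.9%; medians -0.30 and 0.03). SN comparisons depend on the scaling, since the log2 differences carry TMM factors and the levels in cpm do not. With total counts in place of TMM factors the all-gene median became 0.16 for SN minus PFC and 0.16 for SN minus STR in Nestin-Cre mice, and 0.11 for SN minus PFC in AAV-Cre mice. The member split in Nestin-Cre SN minus STR then moved from 10 higher and 6 lower to 13 higher and 4 lower (76.7% of all genes in either direction).

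Among the lineage receptors, Cx3cr1, which binds the neuronal chemokine Cx3cl1, was at 57.1 cpm (44.4 to 67.4) in PFC, 70.7 (64.8 to 81.3) in STR and 59.2 (54.1 to 75.3) in SN of Nestin-Cre WT mice. AAV-Cre WT mice had 72.1 (58.5 to 85.2), 79.7 (66.9 to 87.3) and 64.3 (48.4 to 71.6). It was higher in STR than PFC in the Nestin-Cre mice (log2 0.30 ± 0.09) and lower in SN than STR in both models (-0.34 ± 0.10 and -0.44 ± 0.09, edgeR adjusted p 0.00465 and 0.000246). Csf1r, the growth factor receptor on which microglia depend, had 122 cpm (104 to 133), 135 (108 to 145) and 124 (106 to 145) in Nestin-Cre PFC, STR and SN, and 148 (135 to 197), 152 (131 to 160.1) and 123 (98.5 to 172) in AAV-Cre. Its SN level was lower than in STR in both models (-0.22 ± 0.09 and -0.26 ± 0.10), with overlapping libraries, and without the 2 high mice the Nestin-Cre difference (-0.18) was not called.

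P2ry12, the ADP receptor that steers microglial processes, gave 38.7 cpm (32.0 to 48.2), 59.9 (46.1 to 73.4) and 62.7 (51.4 to 106) in Nestin-Cre PFC, STR and SN. In AAV-Cre the values were 48.8 (37.3 to 58.0), 43.0 (39.3 to 52.0) and 36.2 (32.6 to 49.8). SN was above PFC in the first model (0.69 ± 0.15, edgeR adjusted p 0.000310, and 0.45, 0.000402 without the 2 high mice) and below it in the second (-0.40 ± 0.10, 0.00105). Tmem119, a membrane protein gene used to tell microglia from other macrophages, varied less than P2ry12 between regions of Nestin-Cre mice. Its levels were 22.7 (20.4 to 28.5), 27.0 (23.4 to 34.3) and 27.4 (20.3 to 32.0) cpm in Nestin-Cre, and 32.3 (25.6 to 41.1), 30.5 (26.6 to 36.2) and 26.3 (19.9 to 29.0) in AAV-Cre. With TMM factors its Nestin-Cre SN minus PFC difference was 0.00 ± 0.12, although the median in cpm was higher in SN. It was called higher in Nestin-Cre STR than PFC (0.23 ± 0.12) and lower in AAV-Cre SN than PFC (-0.43 ± 0.11). Gpr34, a lysophosphatidylserine receptor, had 10.8 (9.23 to 14.0) cpm in Nestin-Cre PFC and 20.1 (13.7 to 22.7) in STR (0.77 ± 0.18, edgeR adjusted p 0.000853), with overlap.

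Of the signalling genes downstream of Trem2 and the Fc receptors, the phosphatase Inpp5d was lowest in SN. Nestin-Cre levels were 19.6 cpm (15.7 to 22.6) in PFC, 18.7 (13.6 to 20.8) in STR and 14.5 (11.5 to 17.8) in SN, and AAV-Cre levels 24.5 (21.4 to 25.7), 22.0 (19.7 to 28.5) and 15.6 (12.6 to 19.5). SN minus PFC was -0.62 ± 0.11 and -0.71 ± 0.09 (edgeR adjusted p 3.49e-05 and 3.62e-07), and in AAV-Cre the libraries of the regions did not overlap. Trem2, the lipid receptor itself, had 15.9 (11.9 to 19.0) cpm in AAV-Cre STR and 10.2 (8.32 to 12.6) in SN (-0.67 ± 0.14, edgeR adjusted p 0.000153). Among the transcription factors Sall1 was lower in Nestin-Cre STR, 22.9 (18.6 to 29.2) cpm, than in PFC, 37.2 (25.3 to 54.8) (-0.75 ± 0.15, edgeR adjusted p 0.000135). Irf8 was highest in AAV-Cre STR at 10.5 (8.72 to 13.5) cpm, against 6.22 (5.29 to 8.35) in PFC, with no overlap (0.66 ± 0.13, edgeR adjusted p 0.000179).

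Cd83, a surface glycoprotein gene induced in activated antigen-presenting cells, had the widest regional range. Its levels were 16.2 cpm (14.1 to 19.3) in PFC, 7.34 (6.40 to 11.7) in STR and 71.0 (49.5 to 79.7) in SN of Nestin-Cre mice, and 13.1 (10.8 to 16.3), 8.53 (6.75 to 10.5) and 49.9 (43.1 to 75.0) in AAV-Cre. SN minus STR was 2.97 ± 0.14 and 2.59 ± 0.13, and SN minus PFC 1.90 ± 0.12 and 1.93 ± 0.12 (edgeR adjusted p at most 3.86e-12). STR minus PFC was -1.07 ± 0.13 and -0.67 ± 0.13. In none of these 6 comparisons did the Cd83 libraries overlap, and by rank per kb it went from 24 of 31 in Nestin-Cre STR to 4 in SN. With group means removed, Cd83 hardly followed the mean of the other members (r = 0.043 over all libraries). In Nestin-Cre SN r was 0.062 and in AAV-Cre SN -0.149. Which cells carry the Cd83 transcript in SN was not tested.

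Cd68, a lysosomal glycoprotein gene of phagocytes, was highest in STR, with 7.74 cpm (6.56 to 9.18), 16.8 (15.7 to 19.7) and 8.98 (6.31 to 11.9) in Nestin-Cre PFC, STR and SN. AAV-Cre values were 11.3 (9.16 to 12.0), 16.9 (12.3 to 17.8) and 6.98 (6.15 to 10.1). STR exceeded PFC by 1.14 ± 0.12 and 0.50 ± 0.11, and SN minus STR was -1.10 ± 0.13 and -1.15 ± 0.11 (edgeR adjusted p at most 0.000548), each without overlap. In AAV-Cre SN minus PFC it was -0.65 ± 0.12 (edgeR adjusted p 2.87e-05). Ctss had 54.6 cpm (46.9 to 59.4), 79.9 (68.6 to 114) and 133 (123 to 218) in Nestin-Cre, and 89.3 (73.1 to 101), 125 (104 to 179.9) and 112 (98.8 to 165) in AAV-Cre. Nestin-Cre SN was above PFC by 1.35 ± 0.14 and above STR by 0.71 ± 0.15, with no overlap in either. AAV-Cre STR was above PFC by 0.49 ± 0.12, also with no overlap.

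Lyz2, a lysozyme gene of myeloid cells, and Ly86, a partner of the Toll-like receptor family member Cd180, were spread most widely in Nestin-Cre SN. Lyz2 had 6.69 cpm (4.54 to 10.2) in PFC, 5.41 (3.27 to 8.48) in STR and 22.3 (8.66 to 61.3) in SN (1.76 ± 0.33 and 2.11 ± 0.37 for SN against PFC and STR, edgeR adjusted p 5.67e-05 and 2.75e-05). Ly86 had 6.89 (4.22 to 10.4), 13.9 (6.71 to 16.2) and 24.9 (9.66 to 37.6) cpm, with SN minus PFC 1.57 ± 0.23, SN minus STR 0.71 ± 0.25 and STR minus PFC 0.86 ± 0.24. AAV-Cre Ly86 was at 8.57 (6.48 to 13.03) in PFC and 13.5 (9.20 to 21.2) in STR (0.54 ± 0.23, edgeR adjusted p 0.0448). Cd14, the lipopolysaccharide co-receptor gene, had 2.51 (1.76 to 3.48) cpm in Nestin-Cre PFC and 6.47 (4.86 to 6.91) in SN, without overlap (1.09 ± 0.17). In AAV-Cre STR minus PFC it was 0.54 ± 0.18, from 2.30 (1.76 to 3.501) to 3.64 (3.01 to 4.31) cpm, with overlap. Aif1, which encodes the actin-binding protein IBA1, had 5.59 (4.62 to 6.28), 7.96 (6.00 to 9.41) and 10.3 (6.83 to 13.6) cpm in Nestin-Cre PFC, STR and SN. In AAV-Cre it had 8.82 (5.50 to 11.7), 10.2 (6.96 to 12.8) and 6.15 (4.58 to 7.74), and SN was below PFC (-0.66 ± 0.15, edgeR adjusted p 0.000592) and STR (-0.82 ± 0.15, 4.92e-05).

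Leaving out the 2 high mice kept Lyz2, Cd83, Ly86, Ctss and Cd14 called in Nestin-Cre SN minus PFC, with Lyz2 at 2.01, Cd83 at 1.94, Ly86 at 1.44, Ctss at 1.13 and Cd14 at 1.03. Of the 20 members higher in SN than PFC there, Cd53 (1.06), Fcer1g (1.02), Olfml3 (0.88), Gpr34 (0.86), Tyrobp (0.84) and the leukocyte phosphatase Ptprc (0.84) came next. The 3 lower were Inpp5d, Laptm5 (-0.47) and Fcrls. In AAV-Cre mice Cd83, Ptprc (0.46) and Ctss (0.34) were the 3 higher in SN than PFC, and the 17 lower ran from Siglech (-0.30) to Fcrls (-1.81). The higher ones in SN than STR were Cd83 and Sall1 (0.28). Apbb1ip, an adaptor that links Rap1 to integrins, was called in none of the 6 region comparisons.

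Cell-type genes outside the list moved between regions as well. Of 30 other microglia genes, Nestin-Cre mice had 14 higher and 4 lower in STR than PFC, and 18 higher and 5 lower in SN than PFC. AAV-Cre mice had 10 and 5, then 3 and 9. Damage-associated genes were higher in SN than PFC for 12 of 15 and lower for 2 in Nestin-Cre (median 0.93), and in AAV-Cre, where most called members were lower, 10 of 16 were higher and 2 lower (0.43). For STR against PFC 4 of 15 were higher and 7 lower in Nestin-Cre (median -0.18), and 6 of 16 higher and 5 lower in AAV-Cre (0.056). Choroid plexus genes were higher for 7 of 7 in Nestin-Cre SN than PFC (2.27) and 6 of 6 in AAV-Cre STR than PFC (3.81). The 10 oligodendrocyte genes were higher in SN than PFC in both models (10 of 10, medians 2.27 and 1.76), with Mbp the most abundant. They were also higher in STR than PFC (10 of 10 in both models, medians 0.706 and 1.116). There neuron genes were lower for 6 of 8 in Nestin-Cre and 7 of 8 in AAV-Cre, with 0 higher. Endothelial genes were lower for 8 of 9 and 7 of 9, with 1 and 0 higher. Border macrophage genes, 8 tested, were higher in Nestin-Cre SN than PFC for 7 (median 1.39), among them Mrc1 (mean 12.9 against 4.44 cpm), while in AAV-Cre 0 of 6 were higher and 1 lower. Against PFC they were lower in STR for 3 of 8 in Nestin-Cre (median -0.855) and 5 of 6 in AAV-Cre (-1.812), with 0 higher. Ligands of microglial receptors differed between regions: Cx3cl1 was -2.54 and -1.97 in SN minus PFC of the respective models, and the Csf1r ligand Il34 -1.93 and -1.77. The part of these genes' cell types in the member differences was not tested.

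Between the models, WT mice differed in many members, and the direction of most called members differed between PFC and SN. In PFC 21 members were higher and 2 lower in AAV-Cre than in Nestin-Cre mice (all genes, 24.3% and 22.6%; medians 0.36 and 0.02). In STR 11 of 30 were higher and 6 lower (32% and 29.9%; medians 0.11 and 0.02). The STR counts do not stand out from all genes and are not read as particular to the members. In SN 2 were higher and 19 lower (30.5% and 31.9%, median -0.40). Without the 2 mice the SN count was 3 higher and 12 lower (55.2% of all genes in either direction), with a median of -0.20.

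Fcrls, an Fc receptor-like gene with a scavenger receptor domain, had the largest difference in each region. Nestin-Cre WT mice had 24.4 cpm (14.8 to 33.1) in PFC, 24.1 (18.2 to 31.5) in STR and 22.8 (13.2 to 27.0) in SN. In AAV-Cre WT mice the values were 14.9 (3.28 to 19.3), 6.08 (2.89 to 9.10) and 3.48 (0.670 to 10.5). The log2 differences were -0.86 ± 0.23, -2.15 ± 0.25 and -2.40 ± 0.39 (edgeR adjusted p 0.00603, 1.55e-05 and 0.000131), with 7 of 7 AAV-Cre libraries below the Nestin-Cre mean in each region. STR and SN libraries of the models did not overlap, and PFC libraries did. Within AAV-Cre WT mice Fcrls was also lower in STR and SN than in PFC (-1.33 ± 0.39 and -1.81 ± 0.40, edgeR adjusted p 0.00551 and 0.000338). Nestin-Cre SN minus PFC was -0.37 ± 0.17, not called without the 2 high mice (-0.34).

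**Figure D2:**
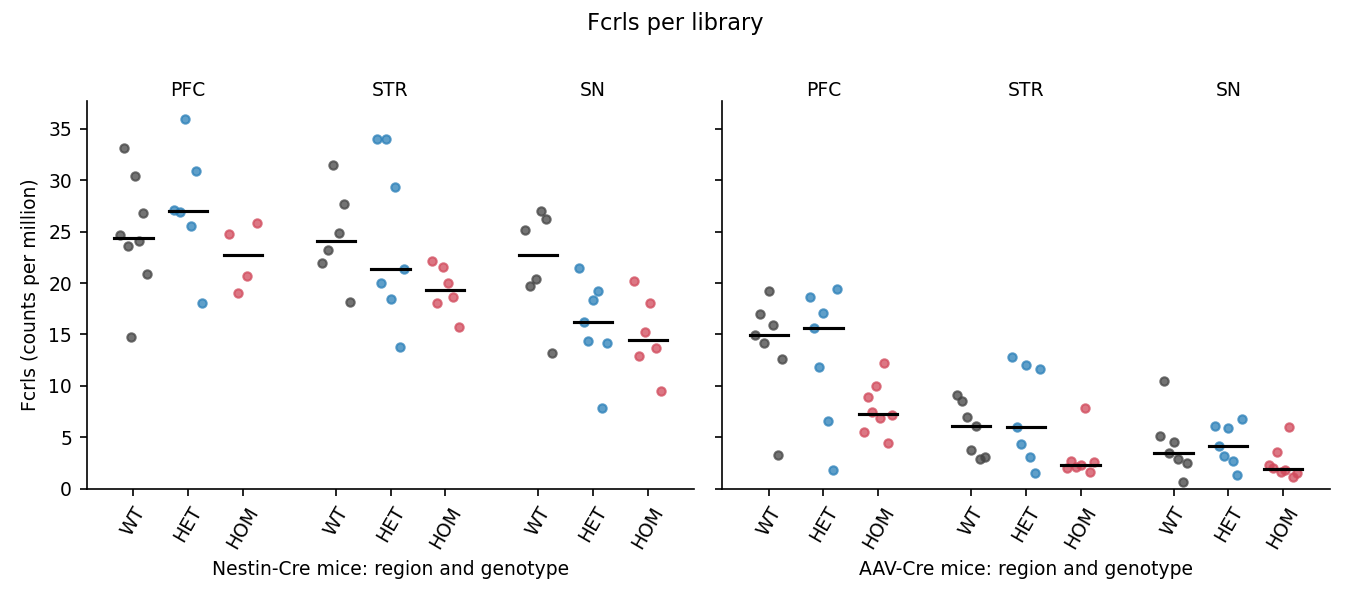
Fcrls in cpm (vertical) by region and genotype (horizontal), Nestin-Cre left and AAV-Cre right. Each point is a library and each bar a group median, 24.4 cpm in Nestin-Cre PFC WT and 3.48 cpm in AAV-Cre SN WT.

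Of the 9 lineage genes in PFC, 7 were higher in AAV-Cre WT mice, Fcrls was lower and Gpr34 not called. Csf1r was higher by 0.36 ± 0.07 with no overlap, Cx3cr1 by 0.32 ± 0.09, Tmem119 by 0.43 ± 0.10 and P2ry12 by 0.24 ± 0.10 (edgeR adjusted p 0.00127, 0.00883, 0.00334 and 0.0548). Selplg, the P-selectin ligand gene, went from 26.6 cpm (19.6 to 34.3) to 45.7 (35.1 to 55.1), with no overlap (0.69 ± 0.13, edgeR adjusted p 0.000636). Ctss, with the PFC levels above, differed by 0.70 ± 0.07 (edgeR adjusted p 1.26e-05), again without overlap. Olfml3, a secreted olfactomedin-domain protein gene, had 16.0 (9.67 to 20.6) and 24.8 (20.4 to 28.9) cpm (0.72 ± 0.15, edgeR adjusted p 0.00106), where the groups overlap slightly. Aif1 differed by 0.68 ± 0.12 (edgeR adjusted p 0.000393) and Cd68 by 0.45 ± 0.09. Cd83 (-0.30 ± 0.09) was, with Fcrls, the exception on the lower side. Cd14, Gpr34, Fcgr3, Cd53, Ptprc, Fcer1g and Sall1 were not called in PFC.

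STR, the injected region, split by gene. Sall1 went from 22.9 cpm (18.6 to 29.2) in Nestin-Cre to 41.3 (38.0 to 45.1) in AAV-Cre mice (0.80 ± 0.09, edgeR adjusted p 1.20e-05), and Lyz2 from 5.41 (3.27 to 8.48) to 12.1 (8.86 to 14.2) (1.00 ± 0.21, 0.00113), both without overlap. Ctss was higher by 0.54 ± 0.13 (edgeR adjusted p 0.00353), and the other 8 higher members were Irf8, Apbb1ip, Laptm5, Ptprc, Aif1, Spi1, Inpp5d and Siglech, from 0.21 to 0.54. Lower besides Fcrls were Gpr34 (-0.57 ± 0.13, edgeR adjusted p 0.00142), P2ry12 (-0.47 ± 0.10, 0.000878), P2ry13, Fcer1g and the tetraspanin gene Cd53. Of the 9 lineage genes 4 were therefore lower, Siglech was higher, and Csf1r, Cx3cr1, Tmem119 and Selplg were not called. Cd68 was not called either.

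In SN the Fc receptor gamma chain gene Fcer1g had 17.0 cpm (11.2 to 18.6) in Nestin-Cre and 6.79 (5.53 to 9.03) in AAV-Cre mice, with no overlap (-1.17 ± 0.16, edgeR adjusted p 2.82e-05). Ly86 had 24.9 (9.66 to 37.6) and 10.5 (7.11 to 21.2) cpm (-1.09 ± 0.30, 0.00576), Lyz2 22.3 (8.66 to 61.3) and 11.1 (6.86 to 24.0) (-1.06 ± 0.42, edgeR adjusted p 0.0426), and Gpr34 20.4 (12.0 to 34.1) and 11.8 (8.89 to 17.0) (-0.98 ± 0.23, 0.00234), each with overlap. P2ry12 was lower (-0.95 ± 0.18, edgeR adjusted p 0.000506) with none. The higher members were Laptm5 (0.43 ± 0.14) and Sall1 (0.27 ± 0.13, edgeR adjusted p 0.0930). Csf1r (-0.01), Cx3cr1 (-0.08) and Tmem119 (-0.10) were not called. The other 13 lower members ran from Cd14 (-0.98) and Fcgr3 (-0.95) to Siglech (-0.32). With the 2 high mice left out Fcrls stood at -2.31, Lyz2 at -1.16, Fcer1g at -1.01, Ly86 at -0.90 and Gpr34 at -0.56, each still called, while Ctss, Selplg, Olfml3, Siglech, Cd68, Cd83 and Trem2 were no longer called.

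**Figure D3:**
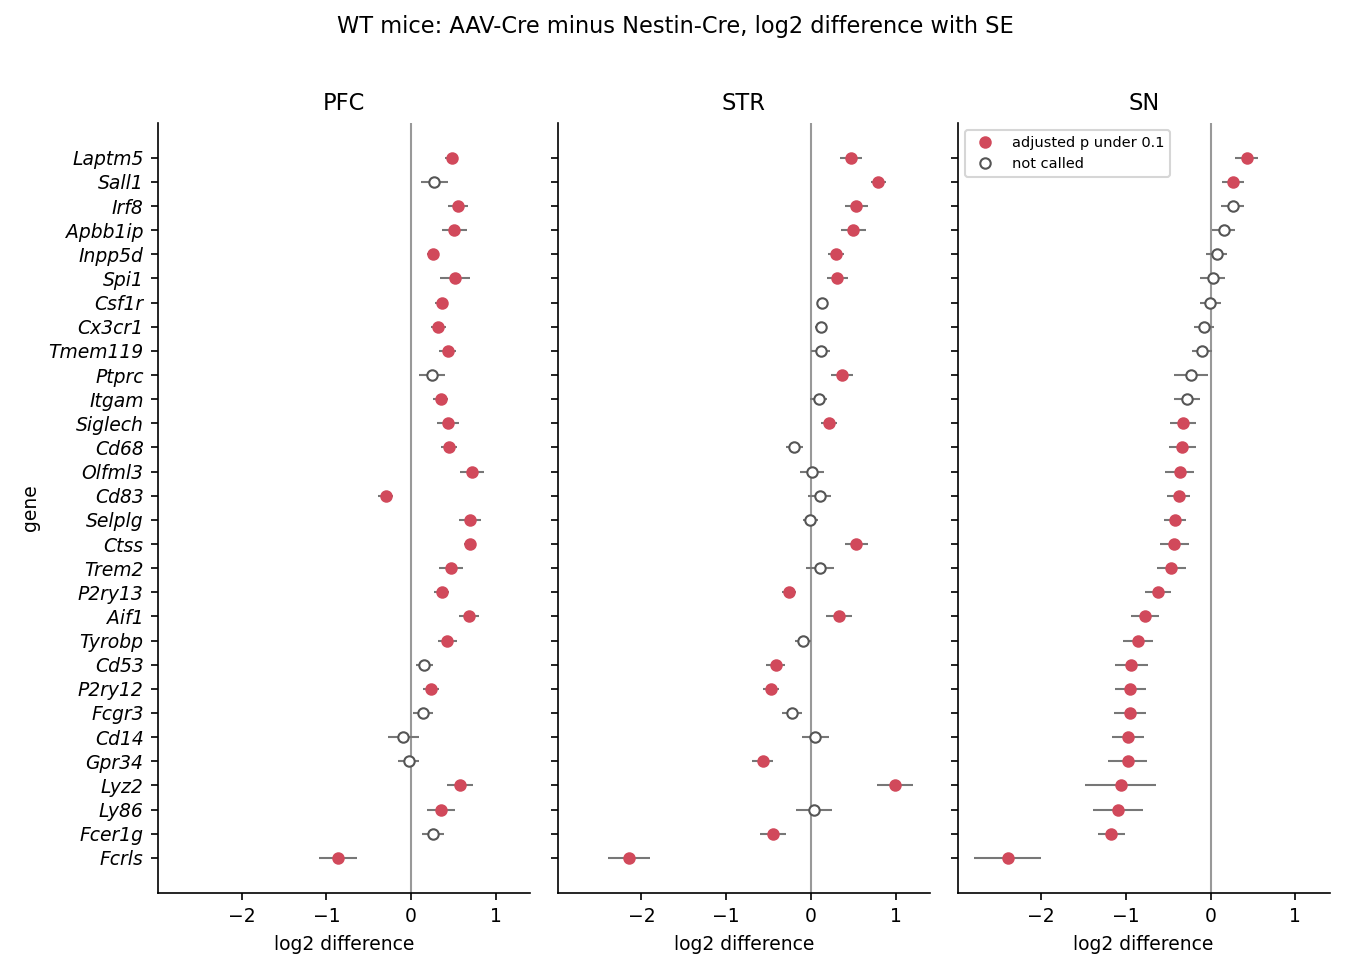
Log2 difference between AAV-Cre and Nestin-Cre WT mice (horizontal, with standard error) for each of the 30 tested microglia genes (vertical, ordered by SN) in 3 regions. Filled points have an edgeR adjusted p under 0.1, and Fcrls lies lowest in each region (-0.86, -2.15 and -2.40).

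The difference between the models itself differed by region. Relative to PFC, the AAV-Cre minus Nestin-Cre difference in STR was higher for 1 member, Sall1 (0.52 ± 0.20), and lower for 9 (all genes, 15.2% and 14.1%; medians -0.29 and 0.01). With mouse number as a block it was 2 and 10 (30.6% of all genes in either direction). The 5 of largest size were Fcrls (-1.29 ± 0.42), P2ry12 (-0.71 ± 0.19), Olfml3 (-0.70 ± 0.23), Fcer1g (-0.70 ± 0.21) and Selplg (-0.69 ± 0.18), at edgeR adjusted p from 0.00481 to 0.0254. For SN against PFC, 0 members were higher and 23 lower (25.3% and 19.8%; medians -0.85 and 0.03). Lyz2 (-1.57 ± 0.41), Fcrls (-1.47 ± 0.43), Aif1 (-1.39 ± 0.20), Ly86 (-1.39 ± 0.34) and Fcer1g (-1.37 ± 0.21) led, at edgeR adjusted p from 1.63e-06 to 0.00598. Without the 2 mice the SN count was 20 lower (38.3% of all genes in either direction), with a median of -0.60.

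Genes outside the list also differed between the models. Other microglia genes were called higher for 19 of 30 in PFC and 15 of 30 in STR with 0 lower, and in SN 6 were higher and 10 lower. Among 16 damage-associated genes tested in STR, 7 were higher and 3 lower (median 0.18), led by Itgax (3.15, means 1.63 and 0.177 cpm), Clec7a (2.88, 1.18 and 0.149 cpm) and Gpnmb (2.09, 3.27 and 0.744 cpm), at edgeR adjusted p 2.72e-05, 0.000286 and 1.49e-05. In PFC 2 of 13 damage-associated genes were higher and 4 lower (median 0.02), and in SN 1 of 15 was higher and 7 lower (median -0.34). The Csf1r ligand Csf1 was higher in STR by 1.05, and the other ligand, Il34, lower (-0.44). Cst7, also damage-associated, had a median of 0.567 cpm (highest 1.14) in AAV-Cre STR WT and lay below the filter. Border macrophage genes were higher in PFC for 4 of 6 (median 0.54) and lower in SN for 7 of 8 (median -1.10). Oligodendrocyte genes were lower in SN for 10 of 10 (median -0.93), and astrocyte genes lower for 7 of 10 there and higher for 8 of 10 in PFC. Cortical neuron genes were lower for 5 of 6 in PFC (median -0.26) and 6 of 6 in STR (-1.99), with 0 of 5 called in SN (-0.25). Striatal neuron genes were higher for 8 of 8 in PFC (0.72) and 3 of 8 in SN (0.84), and in STR 6 were lower and 1 higher (-0.38). In STR 7 of 7 choroid plexus genes were higher (3.66). The part of these shifts in the member differences was not tested.

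Between genotypes, edgeR quasi-likelihood tests with Benjamini-Hochberg adjustment called 0 of 30 members in each of the 12 comparisons of HET or HOM with WT. Each WT group serves both its HET and its HOM comparison. Members vary together within groups (400 of 435 pairs positive), so a count of members of the same sign is not a count of independent genes. The results follow by model and region, with the members of lowest unadjusted p named and the libraries of the mutant group counted against the WT mean. Libraries of WT and mutant overlapped for each tested member in each comparison, except Aif1 in Nestin-Cre PFC HOM and Itgam in Nestin-Cre SN HET and HOM. The share of all genes without overlap is not given for any comparison, so absence of overlap is not read as particular to the members.

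In Nestin-Cre PFC the summed level was 608 cpm (587 to 641) in HET and 587, 620.2, 621 and 632 in the 4 HOM libraries. In HET 0 members were called (0% of all genes; 5 members and 9.72% of all genes at unadjusted p under 0.05, 0 members by the likelihood ratio test and 0 by DESeq2, which called 2.88% and 0.806% of all genes, median -0.03). In HOM 0 were called (0.25% of all genes; 1 member and 10.1% unadjusted, 0 and 1 by the other tools with 2.15% and 1.64% of all genes, median -0.03). In HET, Cx3cr1 had 55.2 (51.7 to 58.7), Csf1r 111 (97.5 to 115) and P2ry12 43.1 (35.8 to 48.3) cpm. Tmem119 had 19.95 (18 to 23.0), Aif1 7.03 (5.12 to 8.40) and Cd68 7.46 (5.74 to 9.43). The 4 HOM libraries had 45.7, 57.9, 61.7 and 65.5 cpm of Cx3cr1, 96.1, 112, 119 and 122 of Csf1r and 36.2, 42.0, 42.9 and 43.4 of P2ry12. They had 20.8, 21.4, 22.7 and 23.7 of Tmem119, 6.48, 7.68, 7.86 and 8.59 of Aif1 and 6.61, 7.07, 8.02 and 8.03 of Cd68. Aif1 in HOM lay above each WT library (0.48 ± 0.13, edgeR adjusted p 0.173, 4 of 4 above), and DESeq2 gave it an adjusted p of 0.0716. Next in HOM were Itgam (-0.26) and Csf1r (-0.12). Oligodendrocyte genes (10 of 10, medians -0.41 and -0.41) and striatal neuron genes (8 of 8, -0.71 and -0.60) were negative in both genotypes, with 0 called. In HET the first were Tmem119 (-0.23 ± 0.09), Aif1 (0.29 ± 0.12) and Csf1r (-0.15 ± 0.06), at edgeR adjusted p from 0.381 to 0.410.

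In Nestin-Cre STR the summed level was 719.9 cpm (634 to 819) in HET and 781 (642 to 835) in HOM. In HET 0 members were called (0% of all genes; 6 members and 17.3% unadjusted, 1 by the likelihood ratio test with 8.57% of all genes, 0 by DESeq2 with 3.69%, median -0.16), and HOM 0 (0%; 0 members and 4.62% unadjusted, 0 and 0 with 1.91% and 0.00690%, median -0.05). Cx3cr1 had 65.0 (52.0 to 78.3) cpm in HET and 68.0 (58.8 to 82.8) in HOM, Csf1r 116 (90.0 to 146) and 128 (119.5 to 161), and P2ry12 61.1 (45.8 to 74.3) and 59.5 (39.3 to 72.5). Tmem119 had 22.8 (20.04 to 28.5) and 27.4 (23.5 to 31.9), Aif1 9.59 (6.30 to 12.3) and 8.49 (6.02 to 13.9), and Cd68 16.3 (13.5 to 18.1) and 17.5 (12.7 to 21.3). Lowest unadjusted p in HET belonged to Selplg (-0.34 ± 0.13), Cd83 (0.55 ± 0.21, 10.8 (7.68 to 18.4) cpm) and Tmem119 (-0.31 ± 0.12), at edgeR adjusted p from 0.222 to 0.232. In HOM they were Sall1 (0.30 ± 0.14), Fcrls (-0.37 ± 0.19) and Tyrobp (-0.24 ± 0.16). In HET the 6 choroid plexus genes had a median of 2.67 with 0 called, and N_STR_HET_4566 stood at 19010 cpm where the other 6 libraries lay between 41.4 and 184 cpm.

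In Nestin-Cre SN most members leaned lower in both genotypes without passing the test. Summed levels were 802 cpm (647 to 926) in HET and 886 (645 to 930.3) in HOM, overlapping WT. In HET 0 members were called (0% of all genes; 15 members and 8.99% of all genes unadjusted, 4 by the likelihood ratio test with 2.23% of all genes, 1 by DESeq2 with 0.0336%), with a median of -0.40 and 29 of 30 negative. In HOM 0 were called (0%; 8 members and 4.09% unadjusted, 1 and 1 by the other tools with 0.800% and 0.00672% of all genes), with a median of -0.28. With the 2 high WT mice left out the medians were -0.22 and -0.10. Itgam, the integrin alpha chain of complement receptor 3, had 30.4 cpm (23.8 to 32.8) in WT, 19.7 (18.4 to 22.4) in HET and 19.2 (18.04 to 20.9) in HOM, and neither group overlapped WT. Its differences were -0.56 ± 0.10 and -0.61 ± 0.10 (edgeR adjusted p 0.213 and 0.109, DESeq2 adjusted p 0.000731 and 0.000159). Leaving out these mice gave -0.45 and -0.51, at edgeR adjusted p 0.978 and 1.

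Cx3cr1 in Nestin-Cre SN had 52.8 cpm (46.7 to 57.5) in HET and 55.1 (46.4 to 60.9) in HOM, Csf1r 98.4 (89.9 to 127) and 109.8 (96.9 to 119.7), and P2ry12 55.7 (33.6 to 70.1) and 57.7 (30.1 to 68.6). Tmem119 had 22.4 (19.1 to 25.1) and 22.4 (21.3 to 23.6), Aif1 7.42 (4.23 to 11.2) and 9.22 (4.24 to 11.2), and Cd68 6.59 (5.56 to 9.90) and 9.42 (6.24 to 10.2). After Itgam came Csf1r (-0.31 ± 0.10) and Inpp5d (-0.34 ± 0.11) in HET, both at edgeR adjusted p 0.518, and Tmem119 (-0.28 ± 0.10) and Fcrls (-0.58 ± 0.22) in HOM, both at 0.892. The 10 oligodendrocyte genes (medians -0.40 and -0.41) and 10 astrocyte genes (-0.16 and -0.19) were all negative too, with 0 called, while 8 of 8 striatal neuron genes were positive in HET (median 1.14; 4 of 8 in HOM). Whether these leans and that of the members have a common source was not tested.

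In AAV-Cre PFC the summed level was 697 cpm (592 to 790.3) in HET and 665 (593 to 804) in HOM, overlapping WT. In HET 0 members were called (0% of all genes; 12 members and 12.3% of all genes unadjusted, 2 by the likelihood ratio test with 1.70% of all genes, 0 by DESeq2 with 0.221%, median -0.23) and HOM 0 (0.0137%; 15 members and 14.2% unadjusted, 8 by the likelihood ratio test with 2.93%, 0 by DESeq2 with 6.77%, median -0.20). The filter that DESeq2 applies left 1 member with an adjusted p in each of these 2 comparisons, so its counts say little there. In each, 28 of 30 members were negative. Cx3cr1 had 60.1 (49.5 to 73.4) and 58.2 (50.9 to 77.8) cpm in HET and HOM, Csf1r 128 (112 to 162) and 127 (115 to 174), and P2ry12 39.7 (33.8 to 45.4) and 40.5 (33.4 to 44.5). Tmem119 had 26.1 (21.1 to 30.0) and 25.3 (21.1 to 30.4), Aif1 7.60 (3.87 to 10.7) and 6.35 (4.50 to 8.07), and Cd68 9.12 (8.22 to 10.9) and 9.73 (7.16 to 11.0). In HET the members of lowest unadjusted p were Tmem119 (-0.30 ± 0.10), P2ry13 (-0.32 ± 0.11) and Selplg (-0.39 ± 0.13), each 7 of 7 below the WT mean at edgeR adjusted p 0.340. In HOM they were Olfml3 (-0.43 ± 0.11), Ly86 (-0.55 ± 0.15) and Tmem119 (-0.30 ± 0.10), 8 of 8 below in each, at edgeR adjusted p 0.166, 0.170 and 0.219. Other cell types leaned lower too, with 10 of 10 astrocyte genes (medians -0.19 and -0.18) and 9 of 9 endothelial genes (-0.17 and -0.14) negative in both genotypes. Of 7 border macrophage genes 7 were negative in HET (-0.43) and 5 in HOM (-0.21), while 8 of 8 neuron genes were positive in both (0.11 and 0.16). None of these was called, and their part in the lean of the members was not tested.

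In AAV-Cre STR, where Gdnf separates HOM from WT, the summed level was 825 cpm (680.0 to 910.3) in HET and 745 (644 to 823) in HOM. In HET 0 members were called (0% of all genes; 2 members and 1.71% of all genes unadjusted, 0 and 0 by the other tools with 0.382% and 0%, median -0.06). In HOM 0 were called (0%; 12 members and 4.58% unadjusted, 3 by the likelihood ratio test with 1.19% of all genes, 0 by DESeq2 with 0.0341%), with a median of -0.19 and 29 of 30 negative. Cx3cr1 had 75.6 (58.9 to 79.9) and 71.9 (57.0 to 78.0) cpm in HET and HOM, Csf1r 141 (118 to 174) and 135 (107 to 152), and P2ry12 42.3 (35.0 to 44.7) and 37.1 (35.8 to 43.0). Tmem119 had 27.5 (23.3 to 35.3) and 27.3 (21.0 to 31.9), Aif1 8.97 (7.48 to 15.5) and 8.86 (6.02 to 10.3), and Cd68 15.8 (14.6 to 17.8) and 15.7 (14.5 to 16.5). In HOM, Ly86 (-0.57 ± 0.15, edgeR adjusted p 0.836, 7 of 7 below the WT mean, 9.40 (8.40 to 10.1) cpm) came first, then Cd14 (-0.33 ± 0.11) and Olfml3 (-0.31 ± 0.10). In HET they were Spi1 (-0.40 ± 0.12), Ly86 (-0.32) and Sall1 (-0.10). Fcrls had the lowest log2 difference in HOM, -0.89 ± 0.44, from 6.08 (2.89 to 9.10) to 2.30 (1.66 to 7.83) cpm with overlap. In HOM 30 of 30 other microglia genes (median -0.14), 4 of 4 border macrophage genes (-0.32) and 9 of 10 astrocyte genes (-0.06) were also negative, while 8 of 8 neuron genes (0.06) and 6 of 6 cortical neuron genes (0.72) were positive. None was called, and their part in the member lean was not tested.

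In AAV-Cre SN the summed level was 825 cpm (679 to 958) in HET and 746 (656 to 859.7) in HOM. In HET 0 members were called (0% of all genes; 0 members and 4.69% of all genes unadjusted, 0 and 0 by the other tools with 2.19% and 0.00675%, median 0.04) and HOM 0 (0%; 3 members and 7.49% unadjusted, 1 by the likelihood ratio test with 1.47%, 0 by DESeq2 with 0.0675%, median -0.09). Cx3cr1 had 62.5 (53.3 to 75.1) and 60.0 (52.5 to 67.5) cpm in HET and HOM, Csf1r 132 (106 to 163) and 122 (115 to 154), and P2ry12 40.2 (32.7 to 48.3) and 31.8 (27.1 to 41.7). Tmem119 had 26.1 (18.5 to 30.5) and 24.0 (16.7 to 27.6), Aif1 6.74 (5.29 to 8.24) and 5.59 (4.93 to 6.46), and Cd68 7.48 (6.49 to 10.8) and 7.82 (6.37 to 9.45). Of lowest unadjusted p were Trem2 (0.23 ± 0.14), Aif1 (0.19) and Ctss (0.13) in HET. In HOM they were Cd53 (-0.31 ± 0.12), Gpr34 (-0.28 ± 0.12) and P2ry12 (-0.22 ± 0.10), at edgeR adjusted p from 0.616 to 0.640.

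**Figure D4:**
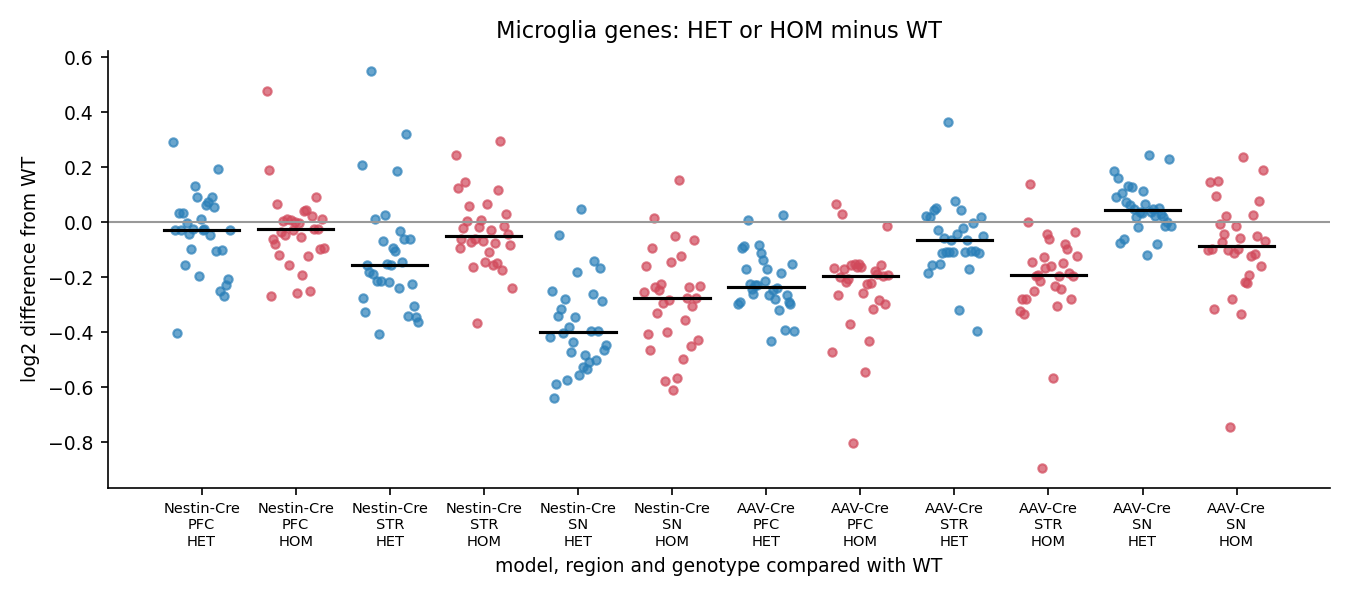
Log2 difference from WT (vertical) of the 30 tested microglia genes in HET and HOM of each model and region (horizontal). Each point is a gene and each bar the median, from -0.40 in Nestin-Cre SN HET to 0.04 in AAV-Cre SN HET.

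Genotype differences were also compared between regions and between models. Against PFC, quasi-likelihood called 0 members in each of 8 tests and DESeq2 0 (its own filter left 4 members for AAV-Cre HET in SN and 13 for AAV-Cre HOM in SN), while the likelihood ratio test called 1 for Nestin-Cre HET in SN (1.08% of all genes) and 2 for AAV-Cre HET in SN (3.59%). For Nestin-Cre HET, STR and SN gave 0% and 0.013% of all genes, with 1 and 6 members at unadjusted p under 0.05 (5.30% and 4.42% of all genes). Nestin-Cre HOM gave 0% and 0%, with 0 and 1 members unadjusted (2.19% and 2.02%). AAV-Cre HET gave 0% and 0.0194%, with 1 and 8 unadjusted (4.82% and 14.0%), and AAV-Cre HOM 0% and 0.188%, with 0 and 1 (4.61% and 14.4%). AAV-Cre against Nestin-Cre gave 0 members for HET in PFC (0.678% of all genes; 4 members and 14.8% of all genes unadjusted), STR (0.00673%; 2 and 15.5%) and SN (0%; 13 and 14.0%). It gave 0 for HOM in STR (0.0202%; 2 and 6.67%) and SN (0%; 2 and 3.32%). In SN HET the likelihood ratio test called 6 (4.56% of all genes) and DESeq2 1 (0.106%), and both called 0 in the other 4 of these, where DESeq2 kept 25 members for PFC HET and 4 for STR HET. Without the 2 high mice 0 members were called in the 4 tests that use Nestin-Cre SN, and the member median of the SN HET difference between models went from 0.43 to 0.23. For HOM in PFC 1 member was called (3 by the likelihood ratio test with 4.20% of all genes; 1 and 16.6% unadjusted), Aif1, at -0.94 ± 0.22 (3.54% of all genes; edgeR adjusted p 0.0212). Its HOM values were above WT in Nestin-Cre PFC and at 6.35 (4.50 to 8.07) cpm beside 8.82 (5.50 to 11.7) in AAV-Cre PFC.

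How closely each gene follows the others was described over all libraries, as the correlation of its log2 level with the mean of the other members after group means were removed. Tyrobp followed most closely (r = 0.818), then Ctss (0.794), P2ry13 (0.780), P2ry12 (0.770) and Cd53 (0.768). Sall1 (0.039), Cd83 (0.043), Cst7 (0.267) and Fcrls (0.332) had the lowest values. For Sall1 the value over all libraries joins opposite signs, from -0.385 to -0.275 in the 3 regions of Nestin-Cre mice and from 0.173 to 0.657 in those of AAV-Cre mice, while Cd83 ran from -0.277 to 0.315. In SN, Inpp5d and Laptm5 had -0.224 and -0.127 in Nestin-Cre but 0.815 and 0.825 in AAV-Cre. The order also differed within single regions, with Csf1r highest in AAV-Cre SN (0.935) and Ctss at 0.264 in Nestin-Cre PFC. Of 435 pairs 400 were positive, with a median r of 0.293. Within groups Fcrls varied most (residual SD 0.59 log2 units), ahead of Lyz2 (0.48) and Ly86 (0.38), and Cx3cr1 least (0.16).

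Promoters are shown because Spi1 and Irf8 set microglial expression through known DNA elements. For 23 members 28 promoters of 300 bases, 250 before the start and 50 after, were at hand from the RefSeq annotation of GRCm38.p6. No promoter sequence was at hand for Csf1r, Gpr34, Tmem119, Selplg, Tyrobp, Spi1, Cd83 and Cd14. The PU.1 element GAGGAAGT, sought on both strands, occurs in 4 of 28 (14.3%) and in 1052 of 32851 promoters of all genes (3.20%). The joint PU.1 and IRF element, GGAA and GAAA with any 2 bases between, occurs in 1 of 28 (3.57%, Cd68) and in 892 of all (2.72%). A match describes the sequence and says nothing of binding. The 4 promoters with GAGGAAGT, matches in capitals, belong to Ctss (chr3:95526536-95526835, plus strand), Cd53 (chr3:106790100-106790399, minus), Inpp5d (chr1:87620062-87620361, plus) and Apbb1ip (chr2:22774077-22774376, plus). In Ctss, Cd53 and Apbb1ip the match is on the opposite strand and reads ACTTCCTC.
Ctss: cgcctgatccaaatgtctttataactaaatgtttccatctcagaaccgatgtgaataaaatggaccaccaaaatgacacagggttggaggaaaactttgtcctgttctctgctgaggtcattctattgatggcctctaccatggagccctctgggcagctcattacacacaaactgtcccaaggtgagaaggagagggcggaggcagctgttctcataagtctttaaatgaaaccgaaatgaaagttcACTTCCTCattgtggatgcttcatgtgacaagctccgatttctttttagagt
Cd53: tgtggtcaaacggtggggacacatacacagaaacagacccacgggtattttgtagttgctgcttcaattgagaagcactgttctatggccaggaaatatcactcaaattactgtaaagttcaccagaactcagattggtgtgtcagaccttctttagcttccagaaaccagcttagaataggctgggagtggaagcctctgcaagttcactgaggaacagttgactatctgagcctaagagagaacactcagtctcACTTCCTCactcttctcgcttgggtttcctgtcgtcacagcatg
Inpp5d: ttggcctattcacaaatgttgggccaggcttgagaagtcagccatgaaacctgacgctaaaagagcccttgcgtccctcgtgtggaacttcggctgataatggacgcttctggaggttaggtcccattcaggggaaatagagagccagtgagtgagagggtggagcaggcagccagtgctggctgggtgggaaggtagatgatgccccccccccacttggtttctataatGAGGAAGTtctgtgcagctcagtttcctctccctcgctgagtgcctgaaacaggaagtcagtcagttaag
Apbb1ip: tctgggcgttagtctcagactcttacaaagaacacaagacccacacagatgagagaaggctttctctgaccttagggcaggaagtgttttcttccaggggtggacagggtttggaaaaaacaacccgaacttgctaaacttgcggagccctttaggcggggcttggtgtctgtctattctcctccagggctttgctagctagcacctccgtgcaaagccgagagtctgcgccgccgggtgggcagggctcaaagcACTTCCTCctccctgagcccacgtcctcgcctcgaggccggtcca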

How the data were processed

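The raw gene counts of 121 libraries deposited by the authors were used (bcl2fastq 2.20.0.422, STAR 2.5.2b on mm10, featureCounts 1.5.1, stranded mRNA libraries), with 0 unused per-sample columns. In R 4.3.3, edgeR 4.0.16 kept genes at 1 or more cpm in 3 or more libraries of each fit, applied TMM factors, and tested by quasi-likelihood with trended dispersion and Benjamini-Hochberg adjustment over all tested genes. A gene was called at an adjusted p under 0.1, and standard errors are the absolute log2 difference over the square root of F. Genotypes were fitted per model and region. The 6 core genes are given in each group, and each comparison names up to 5 called members, or the 3 of lowest unadjusted p. Members and lists were chosen with earlier results of these data known. Residuals of the same mouse correlated across regions (median r 0.180 to 0.279, other mice -0.014 to -0.001), so mouse number was tried as a block. DESeq2 1.42.0, likelihood ratio tests, other scalings, filters, thresholds and sample sets, among them without mouse 4575, were tried. The code was tested on simulated data.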

Additional observations from a re-analysis of the deposited data

Results flagged for a closer look

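Levels of the 6 core genes, Gdnf and the summed members were searched group by group for a single library far from the rest, by Dixon's ratio. Among 144 groups 6 such libraries were found, where about 1 in 20 groups would be picked out by chance. Cx3cr1 was lowest in library A_STR_HET_3688 at 58.9 cpm (next 71.3). Cd68 was highest in A_SN_HET_3610 at 10.8 cpm (next 8.26) and in A_SN_WT_3576 at 10.1 cpm (next 7.71). Gdnf was highest in A_SN_WT_3587 at 1.08 cpm (next 0.335), in N_PFC_HOM_4580 at 0.626 cpm (next 0.139) and in N_SN_HET_4566 at 1.67 cpm (next 0.667).

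Genes whose difference between the models itself differed by region are listed here as log2 values with edgeR adjusted p (Benjamini-Hochberg), namely the 5 called members of largest size and any of the 6 core genes called. For STR against PFC they were Fcrls (-1.29, 0.0254), P2ry12 (-0.71, 0.00595), Olfml3 (-0.70, 0.0232), Fcer1g (-0.70, 0.0143), Selplg (-0.69, 0.00481) and Cd68 (-0.64, 0.00400), and the other 4 of the 10 called were Sall1 (0.52, 0.0520), the 1 higher, and P2ry13 (-0.62), Cd53 (-0.57) and Tyrobp (-0.52). For SN against PFC they were Lyz2 (-1.57, 0.00237), Fcrls (-1.47, 0.00598), Aif1 (-1.39, 1.63e-06), Ly86 (-1.39, 0.00129), Fcer1g (-1.37, 3.59e-06), P2ry12 (-1.13, 1.10e-05), Cd68 (-0.72, 0.000692), Tmem119 (-0.47, 0.0186), Cx3cr1 (-0.34, 0.0493) and Csf1r (-0.31, 0.0606), of which Cx3cr1 and Csf1r were not called without the 2 mice of N_SN_WT_4529 and N_SN_WT_4545. The other 13 of the 23 called were lower too, from Tyrobp (-1.22) to Spi1 (-0.44). Between the models the HOM difference of Aif1 in PFC also differed (-0.94, edgeR adjusted p 0.0212). It was the 1 of 30 members called there, near the share of all genes called (3.54%), so it is not read as particular to the members.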

How the results depend on the processing

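Under the alternatives 314 counts of called members stayed within 1.5 times of the value given and 30 moved further. Some of the 314 differ by a few members, such as 20 and 16 higher in Nestin-Cre SN than PFC with and without the 2 mice named below. The edgeR likelihood ratio test called members in genotype comparisons where quasi-likelihood called 0: in Nestin-Cre 1 for STR HET, 4 for SN HET and 1 for SN HOM, and in AAV-Cre 2 for PFC HET, 8 for PFC HOM, 3 for STR HOM and 1 for SN HOM. Added after the data were seen, the same test gave 4 members lower in AAV-Cre STR than PFC (2 before) and 2 higher in the model by region term for STR (1 before). Where genotype differences were compared, it called 1 in Nestin-Cre HET and 2 in AAV-Cre HET for SN against PFC, and between models 6 in SN HET (0 before in each) and 3 in PFC HOM (1 before). DESeq2 called 1 in Nestin-Cre PFC HOM, SN HET and SN HOM each, 1 in the SN HET difference between models, and 2 higher in the STR term. Total counts only called 1 in Nestin-Cre SN HET, 1 in SN HOM and 2 higher in the STR term. No filter called 1 in Nestin-Cre SN HOM. All 3 regions in 1 fit called 2 in Nestin-Cre STR HET (7.02% of all genes) and 1 in AAV-Cre PFC HOM (2.98%).

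With the replicate block (mouse number) 4 members were lower in Nestin-Cre STR than PFC (2 without) and 2 were higher in the STR term (1 without). It changed no other count by over 1.5 times. At an adjusted p under 0.05 the members higher in AAV-Cre SN than STR and in SN of AAV-Cre against Nestin-Cre went from 2 to 1, and those higher in the STR term from 1 to 0. Without the 2 mice of N_SN_WT_4529 and N_SN_WT_4545, also chosen after the data were seen, 12 were lower in SN between models (19 with them). Leaving out each of the 4 Nestin-Cre PFC HOM mice in turn gave 0 to 0 called members. The cause of these changes was not tested. Where a count in this section has no share of all genes given with it or with its comparison above, it is not read as particular to the members.

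Some limits remain. Groups hold 4 to 8 mice, and genotype differences of the sizes seen here were not called by the quasi-likelihood test. The models differ in injection, age, Cre source and cohort together. Bulk tissue gives no cell counts. In Nestin-Cre mice Sall1 correlated negatively with the mean of the other members (r from -0.385 to -0.275), which was not tested. Regions of a mouse are not independent, and WT groups are shared between comparisons.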

Other observations

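Fcrls in AAV-Cre mice varied by mouse across regions. The mouse of A_PFC_WT_3649 had 3.28, 2.89 and 0.670 cpm in PFC, STR and SN, and that of A_PFC_HET_3688 had 1.85, 1.49 and 1.30 cpm. The mouse of A_PFC_HET_3750 had 19.5, 11.6 and 6.73 cpm, that of A_PFC_HET_3577 had 18.6, 12.8 and 6.07 cpm, and that of A_PFC_HOM_3687 had 12.2, 7.83 and 6.04 cpm. Fcrls was singled out after its values were seen, so after group means were removed each of the 30 tested members was compared in the same way between regions of the same mouse. This gave 180 relations, tested by permutation, 100000 times, with Benjamini-Hochberg adjustment over all of them. The mouse of N_PFC_WT_4575 was left out here because its labels name 2 genotypes. For Fcrls in AAV-Cre mice r was 0.792 for PFC and STR (n = 21, permutation adjusted p 6e-04), 0.799 for PFC and SN (n = 22, 0.00108) and 0.800 for STR and SN (n = 21, 6e-04), with Spearman values of 0.818, 0.807 and 0.808 (permutation adjusted p 0.0012, 9e-04 and 0.00135). In Nestin-Cre mice it was 0.798 (n = 15, permutation adjusted p 0.00651), 0.602 (n = 15, 0.0882) and 0.696 (n = 17, 0.0166), with Spearman values of 0.732, 0.425 and 0.645 (permutation adjusted p 0.0348, 0.277 and 0.0542), so the PFC and SN pair did not pass by rank. Without the 2 mice farthest from the rest the 6 values ran from 0.287 (Nestin-Cre PFC and SN) to 0.734 (AAV-Cre PFC and STR). Fcrls is not alone in this, since member medians of r in the 6 pairs ran from 0.151 to 0.432 and those over all genes from 0.117 to 0.256. At a permutation adjusted p under 0.1 for r, 10, 3 and 9 of 30 members passed in the 3 Nestin-Cre pairs, in the order above. In the AAV-Cre pairs 13, 3 and 6 passed, and the share of all genes that would pass is not given. For AAV-Cre PFC and STR, Selplg (0.810) and Olfml3 (0.806) lay above Fcrls. Among members Fcrls ranked 1 to 3, and 1.40% to 6.83% of all genes were at or above it. The source of this variation was not tested.

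Genes on pathways upstream and downstream of the members, 15 of 17 tested, had 0 called in each of the 12 genotype comparisons. Between the models 6 were higher and 3 lower in PFC, led by Apoe (0.59), Cd200 (-0.57) and Plcg2 (0.53). In STR 6 were higher and 3 lower, led by Csf1 (1.05), Tgfbr2 (0.83) and Cd33 (0.64), and in SN 3 were higher and 2 lower, led by Cd47 (0.67). Endothelial genes were higher in AAV-Cre WT mice for 6, 8 and 6 of 9 in PFC, STR and SN. Neuron genes were lower for 4 of 8 in PFC and in STR, and in SN 3 were higher and 2 lower. Of 14 blood leukocyte genes, Cd4 alone was tested between regions of WT mice, and of 5 erythrocyte genes Alas2. Cd4 had a log2 difference of 4.96 between STR and PFC of Nestin-Cre WT mice and 3.39 in AAV-Cre WT mice. For SN minus STR it was -8.32 and -6.10. Medians of the striatal neuron genes were 4.12 and 2.85 for STR minus PFC, and -5.66 and -4.59 for SN minus STR. Which cells carry the Cd4 transcript was not tested.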
